A study of Mus musculus with 100 samples.

Results

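The loci of the IL-1 family and of the NLRP3 inflammasome were examined across ChIP-seq tables of mouse bone marrow-derived macrophages (BMDMs) and osteoclast precursors. Members were all peaks and regions whose nearest transcription start site (TSS), as annotated in the deposited tables, belonged to Il1a, Il1b, Il18, Il1rn, Il1r1, Il1r2, Il1rap, Nlrp3 or Casp1. They made up 691 of 610301 rows over 15 tables, where a row is the count of sequenced tags in 1 peak or region. Rows with centres within 500 bp of each other were joined across tables into 107 sites, of which 50 were annotated as intergenic, 38 as intronic and 13 as promoters. Il1r1 had 22 sites, Il1a 21, Il1b 17, Il1rn 15, Nlrp3 12, Il1r2 11, Il1rap 4, Casp1 4 and Il18 a lone promoter site. At 32 sites NCoR, HDAC3 and PGC1β each had a row, and at 23 sites all 8 factors did. The nearest TSS does not show which gene a distal site acts on, and a row exists only where a peak was found in at least 1 condition.

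IL-1α (Il1a) and IL-1β (Il1b) are cytokines of acute inflammation that signal through the receptor IL1R1 and its coreceptor IL1RAP. IL1RN is the secreted antagonist of that receptor, and IL1R2 binds IL-1 without signalling and so acts as a decoy. IL-1β and IL-18 are made as inactive precursors that are cut by caspase-1 (Casp1), which is activated inside the inflammasome, a complex built around sensors such as NLRP3. In macrophages, Toll-like receptor signals induce Il1b and Nlrp3 through NFκB, a step known as priming.

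To follow these loci during TLR4 activation, the study treated BMDMs from young adult C57BL/6 mice with vehicle (Veh) or with KLA. KLA is a lipid A preparation that stimulates TLR4, and its time was 6 h wherever one is labelled for KLA libraries. In wild type cells the ChIP targets were the corepressor NCoR, its partner deacetylase HDAC3, the coactivator PGC1β, p65 of NFκB, the acetyltransferase p300, Fosl2 of the AP-1 family, the macrophage factor PU.1 and the kinase ERK1. PGC1β was also measured with DMSO and Veh, DMSO and KLA, or an ERK inhibitor (ERKi) and KLA, and NCoR with ERKi and KLA. The acetylated histone H3K27ac, a mark of active enhancers and promoters, was measured with Veh or KLA in NCoR flox/flox cells (called WT in that table) and in NCoR flox/flox, LysMCre cells (NKO), and likewise in PGC1b flox/flox and PGC1b flox/flox, LysMCre cells. It was also measured in wild type cells with DMSO and Veh, DMSO and KLA, or the HDAC3 inhibitor RGFP966 and KLA, with no group given RGFP966 and Veh. LysM-driven Cre acts in the myeloid lineage, so both deletions are restricted to such cells, and the controls carry the floxed alleles without Cre. ERK1 and p300 were further measured in wild type bone marrow cells on Day0 and Day4 of culture with M-CSF and RANKL, which yields osteoclasts. The p300 libraries titled Veh are described in the labels as KLA with no hours elapsed, not as vehicle for 6 h. The labels do not say whether those cells had vehicle, so p300 with Veh below means this control. Each group had 2 libraries. The methods of the study call its ChIP replicates biological, while the labels do not say whether these came from separate animals or cultures, so p-values measure only the spread between these libraries.

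Header totals of the 70 libraries with counts ran from 4.30 to 21.5 M tags, and 2.79 to 52.8% of them fell in the listed rows. All values below are tags per 10 M of that total, given for replicate 1 and replicate 2 in order. Of 6 macrophage markers, 4 had an H3K27ac promoter row in the WT and NKO table, with a summed level of 184 to 304, while markers of T cells, B cells, neutrophils and fibroblasts had 0 of 3 rows each. In the Pgc1b and RGFP966 tables all 6 macrophage markers had a row, and 1 of 3 neutrophil markers did, at 27.9 to 55.8 and 17.7 to 81.0 against macrophage sums of 1231 to 2459 and 1768 to 2748. In the Day0 and Day4 p300 table, 5 of 6 macrophage markers summed to 259 to 446 and 3 of 4 osteoclast markers to 31.9 to 210. There too 1 of 3 neutrophil markers had a row, at 14.9 to 34.2. H3K27ac at the Ncor1 promoter was present in every library of the deletion experiments. At Ppargc1b it was present in every library of the Pgc1b table (20.2 to 51.6). The Ppargc1b row of the WT and NKO table held 0 to 3.69. None of these values measures the deletions. Tests were edgeR quasi-likelihood F-tests with Benjamini-Hochberg adjustment over all rows of a table, and a row was called, and is said to have risen or fallen, at an adjusted p-value under 0.05 and a change over 2-fold.

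The sequences of 8 sites outside the described promoters, a part of the sites with differences, are shown first. Each is the 200 bp around the centre of the p65 row, read from GRCm38 (mm10) on the strand of the gene, with motif matches in capitals. The motifs searched on both strands were AP-1 (TGANTCA), PU.1 (GAGGAAG), C/EBP (TTGCNNAA) and the NFκB consensus, and no matches overlapped here. The Il1a windows lie on the minus strand at chr2:129311642-129311841 (intergenic) and chr2:129320032-129320231 (intergenic). The Il1b windows are also on the minus strand, at chr2:129373403-129373602 (annotated as intronic), chr2:129380850-129381049 (intergenic) and chr2:129410479-129410678 (intergenic). The Il1rn windows are on the plus strand at chr2:24335412-24335611 (intergenic, upstream of another Il1rn TSS) and chr2:24341519-24341718 (intronic), and the Il1r1 window is on the plus strand at chr1:40230441-40230640 (intronic).
Il1a 1.8 kb upstream: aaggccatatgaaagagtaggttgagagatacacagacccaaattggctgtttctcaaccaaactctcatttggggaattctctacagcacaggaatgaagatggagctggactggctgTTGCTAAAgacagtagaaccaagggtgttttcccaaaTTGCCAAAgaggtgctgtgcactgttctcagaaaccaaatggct
Il1a 10.2 kb upstream: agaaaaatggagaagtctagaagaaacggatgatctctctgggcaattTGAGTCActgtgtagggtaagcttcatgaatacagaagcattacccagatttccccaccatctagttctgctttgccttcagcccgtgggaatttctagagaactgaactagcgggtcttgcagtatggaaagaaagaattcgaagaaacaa
Il1b 2.4 kb upstream: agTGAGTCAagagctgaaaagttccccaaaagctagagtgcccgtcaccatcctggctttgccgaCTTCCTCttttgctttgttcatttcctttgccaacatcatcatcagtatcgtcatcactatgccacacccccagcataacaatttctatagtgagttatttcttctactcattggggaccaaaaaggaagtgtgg
Il1b 9.8 kb upstream: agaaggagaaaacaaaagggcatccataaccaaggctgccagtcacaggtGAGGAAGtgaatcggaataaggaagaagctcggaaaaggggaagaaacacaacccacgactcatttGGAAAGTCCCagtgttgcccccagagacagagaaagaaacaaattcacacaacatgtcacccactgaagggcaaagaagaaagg
Il1b 39.4 kb upstream: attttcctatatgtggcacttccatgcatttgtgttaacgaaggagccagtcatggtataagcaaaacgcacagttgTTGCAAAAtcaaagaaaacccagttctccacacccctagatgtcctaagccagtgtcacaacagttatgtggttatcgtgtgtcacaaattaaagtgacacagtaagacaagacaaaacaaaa
Il1rn 1.3 kb upstream: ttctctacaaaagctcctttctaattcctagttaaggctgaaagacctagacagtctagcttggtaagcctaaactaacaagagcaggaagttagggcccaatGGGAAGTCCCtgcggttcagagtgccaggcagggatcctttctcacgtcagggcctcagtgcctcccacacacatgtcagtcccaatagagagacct
Il1rn 3.7 kb upstream: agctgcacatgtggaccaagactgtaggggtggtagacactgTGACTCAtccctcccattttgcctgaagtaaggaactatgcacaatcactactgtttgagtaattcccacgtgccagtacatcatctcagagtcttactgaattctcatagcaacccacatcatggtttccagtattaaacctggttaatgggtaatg
Il1r1 5.5 kb downstream: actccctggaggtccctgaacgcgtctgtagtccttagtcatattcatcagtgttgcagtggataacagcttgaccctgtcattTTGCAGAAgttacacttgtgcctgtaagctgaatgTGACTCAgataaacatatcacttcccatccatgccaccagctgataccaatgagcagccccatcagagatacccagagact
The site 1.8 kb upstream of Il1a held 2 C/EBP matches and the site 39.4 kb upstream of Il1b held 1, and neither held an AP-1, PU.1 or NFκB match in these windows. AP-1 matches lay in the windows of Il1a at 10.2 kb, Il1b at 2.4 kb, Il1rn at 3.7 kb and Il1r1 at 5.5 kb. Windows not shown, at Casp1 1.7 kb downstream and at Il1r2 3.5 and 61.8 kb upstream, held no match to any of these motifs. Among 52624 p65 rows cut to the same length, 21.7% held the AP-1 motif, 22% PU.1, 16.9% C/EBP and 9.85% NFκB, against 5.48%, 8.84%, 7.47% and 6.07% of 32851 promoter windows.

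**Figure D1:**
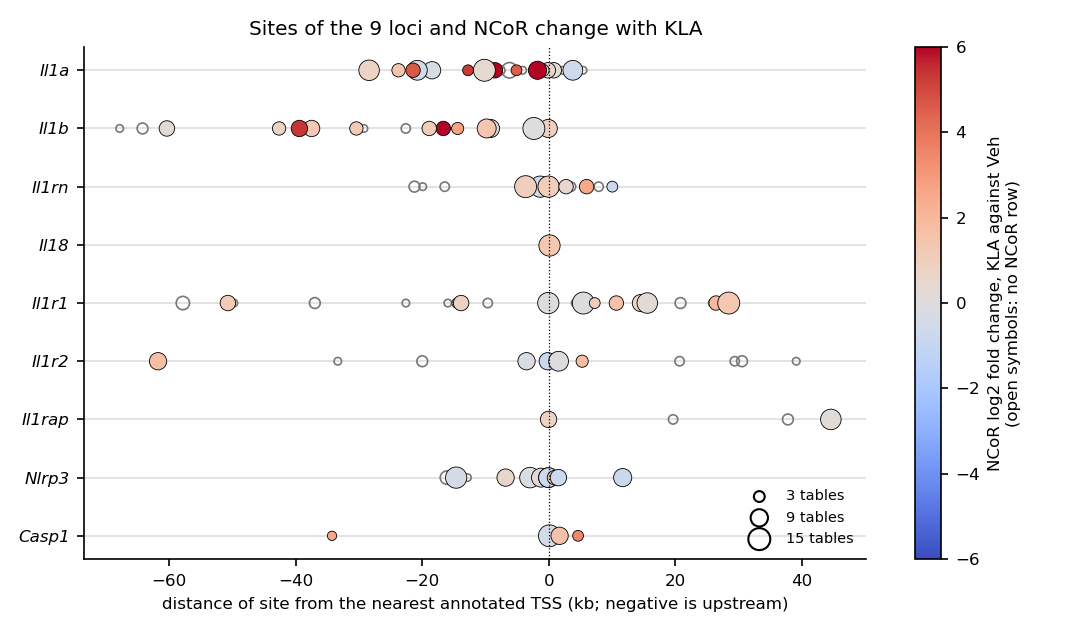
Map of the 107 sites by distance from the nearest TSS in kb (x axis) for the 9 genes (y axis), with symbol size for the number of tables with a row and colour for the log2 fold change, KLA against Veh, of the site's NCoR row of lowest p-value (open symbols had no NCoR row). Il18 had its promoter site alone, whereas Il1r1 had 22 sites, and the strongest red symbols lie upstream of Il1a and Il1b.

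KLA raised p65 at most of these loci, and p300 at most rows of the cytokine and antagonist genes. Of 71 p65 rows, 61 rose and 0 fell at this threshold (57.0% of all p65 rows rose), and all 71 had a positive log2 fold change, with a median of 2.60 against 1.46 over all rows. With TMM scaling (trimmed mean of M-values), which centred all p65 rows at 0.24, the member median was 1.36 and 38 rows were called. p65 rose at 16 of 16 Il1a rows, 13 of 13 Il1b rows, 6 of 6 Il1rn rows and at the Il18 row, and at 8 of 12 Il1r1 rows and 7 of 10 Nlrp3 rows. Of 96 p300 rows, 71 rose and 3 fell (42.1% and 12.9% of all rows), with a median of 2.09 against 0.65 (1.57 against 0.14 with TMM). p300 rose at 15 of 15 Il1a, 16 of 18 Il1b and 16 of 16 Il1rn rows, while at Nlrp3 3 of 14 rows rose and 1 fell.

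The corepressor subunits and PGC1β were also higher with KLA at part of the sites. NCoR rose at 23 of 69 rows and fell at 0 (23.4% of all NCoR rows rose), with a median of 0.62 against 0.10 over all rows. The count rests on both KLA libraries: it was 7 without KLA replicate 1 and 11 without KLA replicate 2. HDAC3 rose at 28 of 66 rows and fell at 1 (27.5% and 11.3%), with a median of 0.90 against 0.27, or 0.65 against −0.01 with TMM, and 16 and 15 rows were called without Veh replicate 1 and Veh replicate 2. PGC1β rose at 14 of 42 rows (16.4%), with a median of 0.86 against 0.06, and 8 and 7 rows were called without Veh replicate 1 and Veh replicate 2. In the separate PGC1β experiment with DMSO, 30 of 55 rows rose (16.4%), with a median of 1.59 against 0.45, and 19 rose with TMM, which gave 1.11 against −0.02. NCoR rose at 6 of 14 Il1a, 5 of 12 Il1b, 3 of 7 Il1rn and 3 of 4 Casp1 rows, and at 1 of 11 Nlrp3 rows, whose median was −0.44.

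The remaining factors moved at fewer rows. Fosl2 rose at 13 of 42 rows (11.4% of all rows), 6 of them at Il1a, 3 at Il1b, 3 at Il1rn and 1 at Il1r1, with a median of 1.00 against −0.14. The Fosl2 KLA libraries differed from each other and this count was unstable: it was 0 without either Veh library, 21 without KLA replicate 1 and 20 with TMM. ERK1 rose at 10 of 37 rows (10.3%), 4 of them at Il1rn, with a median of 1.05 against 0.26, and 4 and 1 rows were called without KLA replicate 1 and KLA replicate 2. PU.1 rose at 4 of 49 rows and fell at 4 (4.53% and 21.7%), with a median of 0.03 against −0.41. All 4 PU.1 gains lay at Il1a and Il1b, and the losses at Il1r2 and Il1r1. With TMM, which centred all PU.1 rows at 0.00, the member median was 0.45, 13 rows rose and 0 fell.

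**Figure D2:**
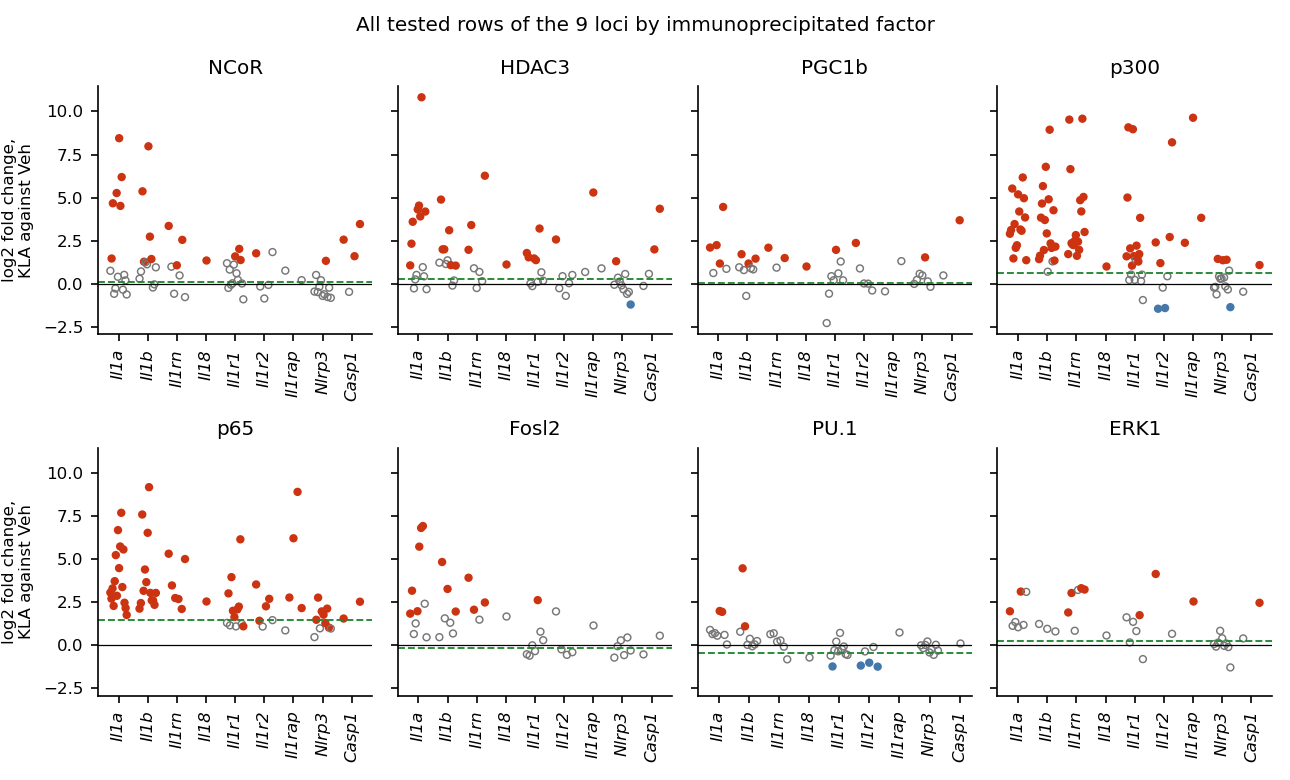
Log2 fold change of KLA against Veh (y axis) of every tested member row by gene (x axis), with a panel for each of the 8 factors; filled red points were called higher, filled blue points lower and open points neither, and the dashed green line is the median of all rows of the table. All 71 p65 rows lie above 0, and fitted values of rows with a group at 0 tags depend on the prior count and are no measure of size.

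At Il1a, the clearest gain was 1.8 kb upstream of the TSS (chr2:129311597-129311958), an intergenic site that was almost empty with Veh. NCoR there measured 3.58 and 1.18 with Veh and 202 and 163 with KLA (log2 fold change 6.20 ± 0.44 SE, adjusted p = 2.75e-05). HDAC3 held 0 tags in both Veh libraries and 162 and 170 with KLA, at least 174-fold higher against a floor of 3 tags over the group. PGC1β went from 4.11 and 1.39 to 72.1 and 48.6 (4.46 ± 0.53, adjusted p = 1.62e-05). The KLA libraries of these 3 proteins lay far above their Veh libraries. p65 was 0 and 3.73 with Veh and 374 and 413 with KLA (7.69 ± 0.46, adjusted p = 7.91e-07), and p300 was 6.89 and 0 against 239 and 280 (6.17 ± 0.40, adjusted p = 2.85e-09). Fosl2 was 0 and 4.19 against 189 and 414 (6.92 ± 1.00, adjusted p = 4.23e-09). ERK1, a signalling kinase found on chromatin here, was 0 and 10.4 against 51.6 and 50.4 (3.12 ± 0.83, adjusted p = 0.0317). The ERK1 call was lost with DESeq2 (adjusted p = 0.2) and without either KLA library (0.0792 and 0.0818), and the Fosl2 call without either Veh library (0.117 and 0.0750). PU.1 had no row at the site, the sole factor of the 8 without one. In the DMSO experiment, PGC1β held 2.44 and 0 with Veh and 116 and 128 with KLA, a ratio of 78.7 with a 95% counting interval of 26.4 to 386.

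The Il1a promoter and the broadly occupied sites further upstream differed from that pattern. At the promoter, p65 rose from 1.75 and 1.86 to 89.5 and 90.3 and p300 from 1.88 and 0.657 to 40.4 and 44.3, whereas NCoR measured 28.7 and 22.4 with Veh and 33.2 and 40.1 with KLA (0.52, adjusted p = 0.306). No ERK1 row was listed there. At the intergenic site 10.2 kb upstream, which had rows in all 15 tables, NCoR was already 265 and 312 with Veh and was 415 and 353 with KLA (0.41, adjusted p = 0.0803). HDAC3 there was 463 and 461 against 507 and 824, while p65 rose from 52.5 and 64.3 to 407 and 452 (2.88) and PU.1 measured 359 and 360 against 546 and 516. Corepressor occupancy at this site was therefore high in both conditions, and the groups of p65 did not overlap. At 28.4 kb upstream NCoR was 93.2 and 120 with Veh and 198 and 163 with KLA (0.76), HDAC3 rose from 130 and 125 to 224 and 316 (1.07), and p65 rose from 26.3 and 41.9 to 254 and 315 (3.06). The HDAC3 call at 28.4 kb was lost with TMM (0.79), without KLA replicate 2 (0.82) and without either Veh library (adjusted p = 0.481 and 0.509). PU.1, the factor that marks macrophage enhancers, rose 6.0 kb upstream from 25.3 and 19.3 to 90.9 and 89.2 (1.99 ± 0.20, adjusted p = 6.05e-17).

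**Figure D3:**
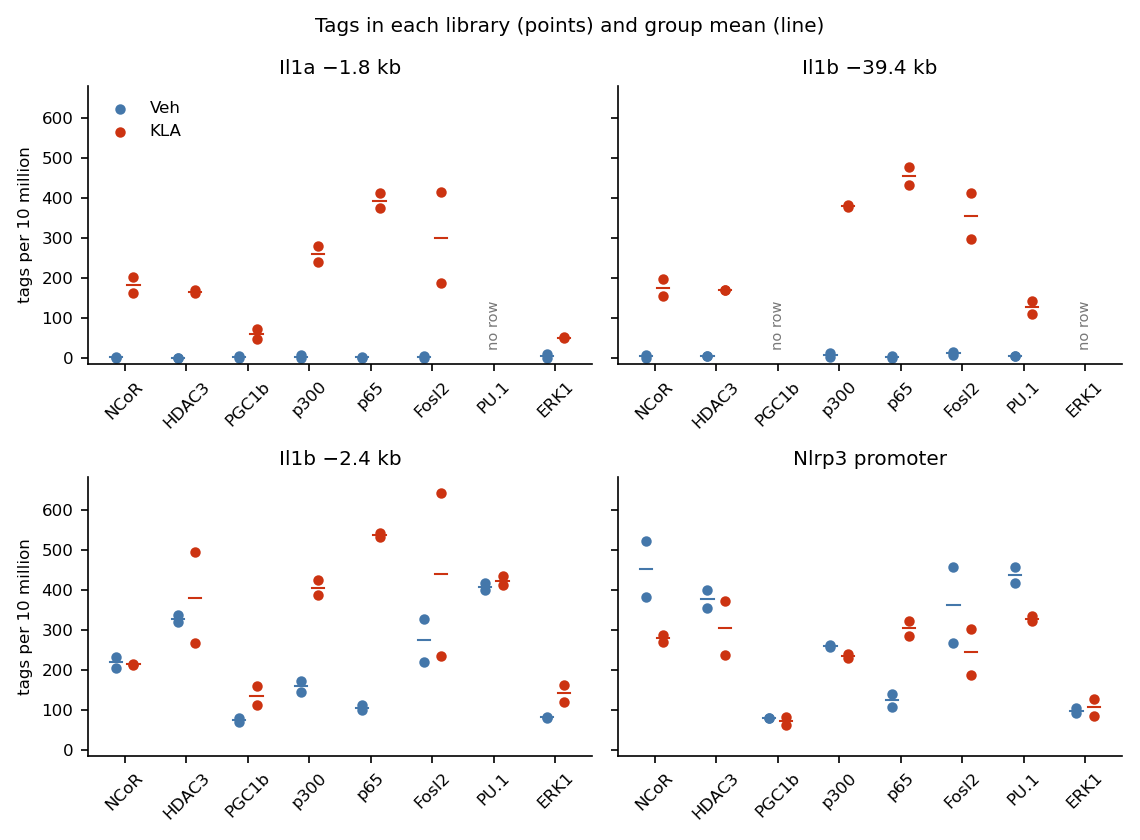
Tags per 10 M (y axis) of 8 factors (x axis) in each library at 4 sites, with Veh in blue, KLA in red and lines at the group means of 2 libraries. The sites 1.8 kb upstream of Il1a and 39.4 kb upstream of Il1b were near 0 with Veh, whereas the site 2.4 kb upstream of Il1b and the Nlrp3 promoter were occupied in both conditions.

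At Il1b, which encodes the main secreted form of IL-1 from macrophages, occupancy at the promoter was present with Veh and higher with KLA. NCoR measured 95.6 and 83.6 against 184 and 165 (0.96, adjusted p = 0.00492), which fell short of 2-fold, and HDAC3 rose from 128 and 144 to 198 and 378 (1.06). PGC1β rose from 23.5 and 31.1 to 91.7 and 61.8 (1.46), p300 from 89.0 and 53.2 to 282 and 356 (2.16), and p65 from 59.5 and 43.8 to 399 and 456 (3.04). Every KLA library was above every Veh library for these 5 proteins. The HDAC3 call was lost with TMM (0.71), without KLA replicate 2 (0.53) and without either Veh library (adjusted p = 0.561 and 0.456), and the PGC1β call without either Veh library (0.17 and 0.0602). PU.1 was 229 and 240 against 290 and 268 (0.25), so its level moved little beside that of p65. At the site 2.4 kb upstream NCoR was 232 and 204 with Veh and 215 and 212 with KLA (−0.03), and HDAC3 336 and 319 against 265 and 493 (0.20), both with overlapping groups. p65 at the same site rose from 98.9 and 111 to 540 and 532 (2.35), and p300 from 172 and 145 to 386 and 423 (1.35, or 0.84 and not past 2-fold with TMM). PGC1β was 69.9 and 79.5 against 158 and 112 (0.84, adjusted p = 0.032).

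The site 39.4 kb upstream of Il1b (chr2:129410436-129411208, intergenic) was close to empty with Veh. NCoR rose from 1.19 and 7.06 to 197 and 156 (5.37 ± 0.46, adjusted p = 4.67e-05), and HDAC3 from 5.82 and 5.53 to 171 and 170 (4.89 ± 0.47, adjusted p = 6.79e-23). p65 rose from 0 and 4.66 to 477 and 432 (7.59 ± 0.45, adjusted p = 8.07e-07) and p300 from 3.13 and 11.8 to 378 and 383 (5.67 ± 0.28, adjusted p = 2.36e-10). Unlike the gained Il1a site, this site held PU.1, which rose from 5.69 and 5.6 to 111 and 143 (4.47 ± 0.25, adjusted p = 2.17e-36). PGC1β had no row here in the Veh and KLA table, but in the DMSO experiment it rose from 6.50 and 0 to 120 and 86.3 (4.64). At the site 9.8 kb upstream NCoR rose from 34.7 and 61.2 to 137 and 125 (1.44) and Fosl2 from 43.7 and 23.1 to 286 and 357 (3.27), while PU.1 was 260 and 260 against 339 and 340 (0.38). That NCoR call was lost without KLA replicate 1 (adjusted p = 0.0558), and the Fosl2 call without either Veh library (0.414 and 0.722). The 3 distal Il1b sites thus ranged from corepressor present throughout, at 2.4 kb, to corepressor gained with KLA, at 39.4 kb.

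Il18, unlike the other cytokine genes, had its promoter as its sole site, and all 8 factors had a row there. NCoR rose from 123 and 177 to 388 and 382 (1.36 ± 0.21, adjusted p = 0.000609), HDAC3 from 231 and 217 to 373 and 613 (1.13), and p65 from 53.4 and 82.0 to 387 and 409 (2.56). PGC1β rose from 37.0 and 31.1 to 98.3 and 44.6 (1.03, adjusted p = 0.0498), with KLA replicates that differed over 2-fold. This PGC1β call was lost with DESeq2 (adjusted p = 0.102), with TMM (0.87) and without any library but KLA replicate 2 (0.39 without KLA replicate 1, adjusted p = 0.232 and 0.387 without the Veh libraries). The HDAC3 call was lost with TMM (0.81), without KLA replicate 2 (0.74) and without either Veh library (adjusted p = 0.557 and 0.586). PU.1 measured 204 and 204 with Veh and 121 and 130 with KLA (−0.70, adjusted p = 1.95e-09), the opposite direction to NCoR at the same promoter. With TMM this PU.1 difference was −0.28.

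Il1rn, the receptor antagonist gene, lies on the same chromosome as Il1a and Il1b and carried rows of all 8 factors at its promoter. NCoR rose there from 89.6 and 97.7 to 207 and 189 (1.08 ± 0.21, adjusted p = 0.00216), PGC1β from 44.7 and 27.9 to 118 and 87.5 (1.5), p300 from 99.0 and 53.2 to 415 and 451 (2.50) and p65 from 62.2 and 67.1 to 399 and 436 (2.69). HDAC3 was 149 and 147 against 176 and 309 (0.69, adjusted p = 0.117), and PU.1 103 and 97.1 against 119 and 126. At the intronic site 3.7 kb upstream ERK1 rose from 31.5 and 31.2 to 105 and 132 (1.91 ± 0.37, adjusted p = 0.0123), and PGC1β from 14.7 and 27.9 to 106 and 80.7 (2.10 ± 0.36, adjusted p = 0.000365). NCoR was 87.2 and 85.9 against 180 and 166 (1.00, adjusted p = 0.00378), just under 2-fold. At the site 1.3 kb upstream of the other TSS, NCoR went the other way, with 130 and 144 against 78.6 and 105 (−0.57, adjusted p = 0.0712), although p65 rose there from 24.5 and 35.4 to 175 and 227 (2.75) and p300 from 65.2 and 35.5 to 237 and 245 (2.25). A further intergenic site 3.8 kb upstream of that TSS was gained, with NCoR at 1.19 and 7.06 against 50.2 and 37.4 (3.36) and p300 at 1.88 and 1.31 against 171 and 166 (6.66). Without KLA replicate 1 the NCoR calls at the promoter and at 3.8 kb were lost (adjusted p = 0.0673 and 0.0776), as was the ERK1 call without KLA replicate 2 (0.0744).

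The receptor genes had sites with little change in corepressor occupancy. At the promoter of Il1r1, the signalling receptor, NCoR was 115 and 140 with Veh and 122 and 124 with KLA (−0.05), and HDAC3 117 and 152 against 117 and 162 (0.03). p65 rose there from 15.8 and 28.0 to 69.5 and 106 (2.01) and p300 from 60.2 and 71.0 to 147 and 126 (1.06). Neither promoter call held with TMM (0.79 and 0.54), the p65 call was lost without KLA replicate 2 (adjusted p = 0.0601), and p300 was 0.94 and 0.95 without KLA replicate 1 and Veh replicate 1. At the intronic site 5.5 kb downstream NCoR was 154 and 167 against 169 and 160 (0.03) and p300 132 and 130 against 151 and 157 (0.23), while p65 rose from 21.9 and 29.8 to 70.1 and 91.7 (1.64). This p65 call was lost with TMM (0.42, adjusted p = 0.286) and without KLA replicate 2 (adjusted p = 0.0726), and no other factor was called at this intronic site. At the site 28.4 kb downstream of another Il1r1 TSS, an NCoR row 27981 bp from that TSS was called higher with KLA, but not with DESeq2 (1.39, adjusted p = 0.0648). PU.1 at this site was 280 and 331 against 211 and 203 (−0.55), and p65 was 21 and 55 against 93.5 and 69.1 (1.10, adjusted p = 0.0354). That p65 value became −0.09 with TMM and was not called with DESeq2 (adjusted p = 0.112) or without KLA replicate 1, KLA replicate 2 or Veh replicate 1 (0.299, 0.124 and 0.1).

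At Il1r2, the decoy receptor gene, p300 rose at several distal sites, while p300 and PU.1 fell at the promoter. p300 fell from 37.6 and 38.1 to 8.70 and 20.0 (−1.40 ± 0.42, adjusted p = 0.00829) and PU.1 from 146 and 131 to 64.8 and 73.9 (−1.0 ± 0.13, adjusted p = 4.37e-11), and no KLA library reached the Veh libraries. With TMM the PU.1 difference was −0.59 and was no longer past 2-fold, and without KLA replicate 1 that of p300 was −0.92 (adjusted p = 0.134). No other factor was called: NCoR was 17.9 and 34.1 against 20.2 and 8.99 (−0.85, adjusted p = 0.234), with overlapping groups, and HDAC3 36.4 and 34.3 against 22.3 and 21.1 (−0.69, adjusted p = 0.276). p65 had the opposite sign, at 8.76 and 13.1 against 26.7 and 19.8 (1.09, adjusted p = 0.0902). PU.1 fell at 3 of 5 Il1r2 rows (21.7% of all PU.1 rows fell), whose median was −1.0 against −0.41 over all PU.1 rows. With TMM none of these falls was called. At the site 61.8 kb upstream, inside an annotated intron, NCoR rose from 19.1 and 18.8 to 68.8 and 61.6 (1.77; adjusted p = 0.0543 without KLA replicate 1), HDAC3 from 13.1 and 13.3 to 61.5 and 100 (2.58) and p65 from 7.88 and 4.66 to 67.5 and 80.7 (3.53). PGC1β rose there from 4.70 and 4.65 to 30.6 and 19.4 (2.37) and p300 from 13.2 and 13.8 to 74.2 and 69.2 (2.41). ERK1 there held 0 and 2.31 with Veh and 25.8 and 25.9 with KLA, a ratio of 19.4 with a 95% counting interval of 5.03 to 166. At 1.5 kb downstream of a TSS p65 rose from 27.1 and 34.5 to 153 and 144 (2.27) while NCoR was 139 and 134 against 133 and 129 (−0.06). p300 rose 5.3 kb downstream from 4.39 and 10.5 to 50.6 and 47.6 (2.72), and 20.7 kb downstream from 0 tags to 20.5 and 22.2. It also rose 20.0 kb upstream (1.21) and fell 33.4 kb upstream (−1.44).

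Il1rap, the shared coreceptor gene, had 4 sites, and its intronic sites gained p300. At 37.8 kb downstream p300 held 0 tags in both Veh libraries and 63.9 and 50.8 with KLA, at least 59.8-fold higher, and p65 held 0 against 55.4 and 36.9, at least 34.2-fold higher. HDAC3 there was 1.45 and 0.553 against 23.4 and 63.2, a ratio of 35.4 (11.7 to 176), and neither NCoR nor PGC1β had a row. At 44.6 kb downstream p300 rose from 6.27 and 9.20 to 119 and 102 (3.83 ± 0.31, adjusted p = 4.03e-08) and ERK1 from 4.72 and 3.47 to 23.4 and 27.2 (2.60), whereas NCoR was 45.4 and 80.0 against 87.5 and 58.8 (0.22). The ERK1 call was lost with DESeq2 and TMM (adjusted p = 0.0605 and 0.0631) and without KLA replicate 1, KLA replicate 2 or Veh replicate 2 (0.305, 0.413 and 0.0821). The promoter showed smaller differences, with p65 at 19.3 and 25.2 against 40.1 and 41.0 (0.87, adjusted p = 0.0782).

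At Nlrp3, the sensor of the inflammasome, occupancy was high in both conditions. The described promoter held 381 and 520 of NCoR with Veh and 270 and 286 with KLA (−0.70 ± 0.19, adjusted p = 0.012), a decrease that fell short of 2-fold. HDAC3 was 399 and 354 against 237 and 372 (−0.32), p300 257 and 260 against 239 and 229 (−0.14) and PU.1 416 and 456 against 333 and 322 (−0.41, which is also the median of all PU.1 rows). p65 rose from 140 and 106 to 284 and 321 (1.29), less than the median of 1.46 over all p65 rows, and with TMM the difference was 0.06 (adjusted p = 0.803). At this promoter both KLA libraries of NCoR lay below both Veh libraries, whereas at the Il18 and Il1rn promoters they lay above them. Another Nlrp3 TSS had a promoter site of its own, with rows of all 8 factors. p65 was called higher there too, and with TMM that difference was 0.55 (adjusted p = 0.00643), short of 2-fold. At 14.6 kb upstream PU.1 was 425 and 460 against 446 and 438 and NCoR 122 and 140 against 95.6 and 96.8 (−0.44, adjusted p = 0.125). At 3.0 kb upstream NCoR was 146 and 144 against 150 and 109 (−0.17) and p65 62.2 and 111 against 160 and 183 (0.99). For NCoR the exception was the intronic site 0.9 kb downstream, where it rose from 47.8 and 23.5 to 76.1 and 104 (1.34). This call was lost without KLA replicate 1 (adjusted p = 0.0522), KLA replicate 2 (0.18) and Veh replicate 2 (0.92, under 2-fold). HDAC3 was called higher at the intergenic site 6.8 kb upstream. That call was lost with DESeq2 (1.36, adjusted p = 0.0611) and with TMM (0.91, short of 2-fold). In an intron 12.1 kb downstream HDAC3 fell from 56.0 and 41.5 to 22.3 and 19.3 (−1.20), and p300 with it from 62.7 and 53.9 to 25.1 and 20.5 (−1.35). The HDAC3 call there was lost with DESeq2 (adjusted p = 0.0862) and without either Veh library (0.453 and 0.199).

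Casp1 encodes the protease that matures IL-1β and IL-18, and its NCoR calls lay outside the promoter. At the promoter NCoR was 167 and 138 against 99.6 and 121 (−0.46, adjusted p = 0.112) and p65 rose from 35.9 and 28.0 to 91.5 and 97.1 (1.56), which became 0.33 with TMM (adjusted p = 0.373). At the intronic site 1.7 kb downstream NCoR rose from 23.9 and 34.1 to 91.5 and 85.8 (1.61), HDAC3 from 18.9 and 38.7 to 104 and 132 (2.00), PGC1β from 4.11 and 2.79 to 40.4 and 48.6 (3.69) and ERK1 from 18.9 and 3.47 to 66.4 and 51.7 (2.47). All KLA libraries exceeded all Veh libraries for these 4 proteins. The HDAC3 call was lost without Veh replicate 1 (adjusted p = 0.167), and the ERK1 call without KLA replicate 1, KLA replicate 2 or Veh replicate 2 (0.119, 0.074 and 0.0979). At the exonic site 4.6 kb downstream NCoR rose from 11.9 and 0 to 69.7 and 64.3 (3.47) and HDAC3 from 3.64 and 1.66 to 52.2 and 56.2 (4.36), with no p65 row there. DESeq2 did not call the NCoR row (adjusted p = 0.156).

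To examine whether ERK activity bears on this occupancy, PGC1β and NCoR were measured with ERKi and KLA. For PGC1β, 0 of 55 member rows were called against DMSO and KLA by edgeR and 0 by DESeq2, with 6 at an unadjusted p-value under 0.05, and 0.286% of all rows were called. The member median equalled that of all rows, at −0.20. At the gained Il1a site PGC1β was 116 and 128 with DMSO and 145 and 153 with ERKi (0.28 ± 0.36, adjusted p = 0.758), and at the Il1b promoter 138 and 188 against 180 and 209 (0.25). At the site 8.5 kb upstream of Il1a it was 43.4 and 29.8 against 17.2 and 9.05 (−1.47, adjusted p = 0.475), a difference the 2 libraries a group could not resolve.

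For NCoR, 25 of 72 rows fell with ERKi against 48.6% of all rows, and the member median of −0.93 lay above the −1.20 of all rows. The KLA libraries here are those of the Veh and KLA comparison, they date from another day than the ERKi libraries, and they had no DMSO, so inhibitor and date cannot be told apart. With TMM the medians were 0.24 and −0.04, 2 rows rose and 0 fell, and without either KLA library 12 rows were called. At the gained Il1a site NCoR was 210 and 187 without and 82.8 and 108 with ERKi (−1.06, adjusted p = 0.0053), which became 0.11 with TMM. That call was also lost without KLA replicate 1, KLA replicate 2 (adjusted p = 0.097 and 0.0559) or ERKi replicate 1 (−0.88). At the gained Il1b site it fell from 206 and 167 to 65.1 and 62.1 (−1.55, or −0.38 with adjusted p = 0.364 with TMM), and at the Il18 promoter from 388 and 382 to 189 and 178 (−1.07, or 0.10 with TMM). Among the member rows below the table median were the site 3.0 kb upstream of Nlrp3, at 156 and 116 against 39.7 and 41.4 (−1.74), and the exonic Casp1 site, at 69.7 and 64.3 against 13.5 and 13.8 (−2.28). With TMM these were −0.57 (adjusted p = 0.158) and −1.12 (0.261). The Casp1 row was also not called with DESeq2 (0.117) or without KLA replicate 1 or KLA replicate 2 (0.0865 and 0.0697). In these bulk libraries, fewer cells with a bound site and less binding per cell cannot be told apart.

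During osteoclast differentiation p300 was higher on Day4 at the same loci, but not more so than elsewhere. p300 rose at 19 of 26 rows against 62.2% of all rows, and the member median of 1.66 was below the 1.84 of all rows. With TMM the medians were 0.11 and 0.28 and 3 rows rose, and 6 and 4 rows were called without Day4 replicate 1 and Day4 replicate 2. The site 10.2 kb upstream of Il1a measured 13.2 and 4.26 on Day0 and 114 and 98.7 on Day4 (3.39 ± 0.49, adjusted p = 0.000324), and the intronic Il1rap site 44.6 kb downstream 7.03 and 10.6 against 90.9 and 63.5 (3.20, or 1.64 with adjusted p = 0.0749 with TMM). At 9.8 kb upstream of Il1b p300 held 0 tags on Day0 and 34.2 and 27.2 on Day4, at least 16.6-fold higher. The Il1b site at 2.4 kb rose from 18.5 and 29.8 to 62.6 and 48.8 (1.27), which became −0.28 with TMM, so its direction depends on the scaling. DESeq2 did not call it (adjusted p = 0.178), nor did edgeR without Day0 replicate 1, Day4 replicate 1 or Day4 replicate 2 (0.105, 0.423 and 0.25). For ERK1, 0 of 22 rows were called by edgeR, 1 by DESeq2 and 1 without either Day0 library, with 6 at an unadjusted p-value under 0.05 (2.35% of all rows called), and the medians were both 1.00. The ERK1 Day4 library titled replicate 2 is described in the labels as replicate 3 of another date. Its description also lacks the tag NCoRWT that the other ERK1 libraries of Day0 and Day4 carry.

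H3K27ac rose with KLA at Il1a, Il1b and Il18 in the 3 experiments on wild type or floxed cells and at Il1rn in the 2 with DMSO or PGC1b flox/flox cells, while the Il1r1 region 5.5 kb downstream fell in the 2 in which it was tested. The Il1rn rows of WT cells were not called, with 1.64 (adjusted p = 0.077) at 1.3 kb and 1.79 (adjusted p = 0.053) at 3.7 kb. The Il1rap window 44.6 kb downstream rose with DMSO, from 1.66 and 8.72 to 14.9 and 17.7 (1.64, adjusted p = 0.0046). It did not differ in PGC1b flox/flox cells (0.05), and its row in WT cells was under the tag minimum. In WT cells 5 of 12 tested member rows rose and 0 fell (6.49% of all rows rose), with a median of 1.31 against 0.13, and 12 of 16 listed rows passed the filter. These were 3 Il1a rows, the Il1b row and the Il18 row. The count was 1 without either WT Veh library and 3 without WT KLA replicate 2 or with TMM. With DMSO, 7 of 14 rows rose and 1 fell (6.73% and 28.1%), with a median of 0.67 against −0.42. In PGC1b flox/flox cells 6 of 14 rose and 1 fell (5.22% and 25.6%; 7 and 0 with TMM), with a median of 0.41 against −0.45. Il1r2 had no H3K27ac row in any table, and the fixed windows of 1000 bp in the DMSO and Pgc1b tables gave more tags per row than the WT and NKO regions.

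The levels behind these counts were as follows. The region 2.4 kb upstream of Il1b rose in WT cells from 6.93 and 5.6 to 24.5 and 29.6 (2.10 ± 0.51, adjusted p = 0.00234), with DMSO from 54.8 and 61.1 to 399 and 330 (2.65) and in PGC1b flox/flox cells from 46.6 and 51.3 to 283 and 281 (2.53). The WT call was lost without WT Veh replicate 2 (adjusted p = 0.0687). This is the Il1b site at which NCoR and HDAC3 did not differ with KLA beyond their spread. The region 10.2 kb upstream of Il1a rose with DMSO from 19.1 and 10.5 to 174 and 160 (3.48) and in PGC1b flox/flox cells from 16.8 and 24.9 to 211 and 194 (3.30). The Il18 promoter rose in WT cells from 12.0 and 23.9 to 41.5 and 51.7 (1.35, a call lost without WT KLA replicate 2 at adjusted p = 0.0613 or WT Veh replicate 1 at 0.194), and the Il1rn promoter with DMSO from 39.9 and 41.9 to 330 and 303 (2.95). The Il1r1 region 5.5 kb downstream moved the other way, from 74.8 and 63.7 to 27.8 and 17.7 with DMSO (−1.58) and from 58.9 and 46.4 to 22 and 24.8 in PGC1b flox/flox cells (−1.17). The latter was −0.74 with TMM and −0.98 without flox/flox Veh replicate 1, short of 2-fold in both, and the row of this region in WT cells was under the tag minimum. In PGC1b flox/flox cells, the region 14.6 kb upstream of Nlrp3 was 164 and 154 against 168 and 165 (0.06). The Casp1 promoter was 281 and 267 against 475 and 446 in those cells (0.75, adjusted p = 2.56e-16), short of 2-fold. With TMM this difference was 1.18 (adjusted p = 8.3e-37) and was called. The same promoter was 64.9 and 60.1 against 59.1 and 73.1 in WT cells (0.08, adjusted p = 0.864) and 458 and 351 against 517 and 422 with DMSO (0.22, adjusted p = 0.353).

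**Figure D4:**
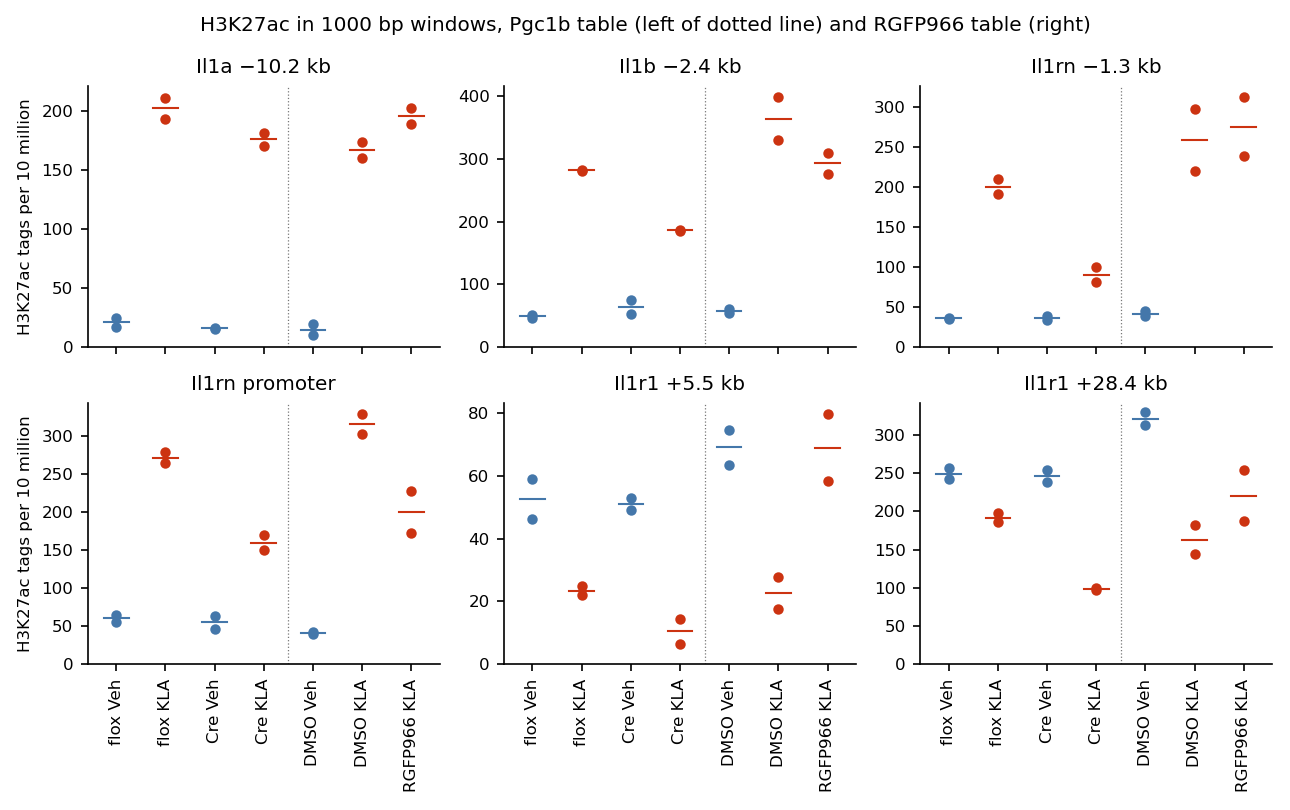
H3K27ac in tags per 10 M (y axis) in 6 windows of 1000 bp, by group (x axis; flox and Cre stand for PGC1b flox/flox without and with LysMCre), with Veh in blue, KLA in red, a point for each library and lines at the means of 2 libraries. With KLA, the Il1rn region 1.3 kb upstream held 192 and 210 in PGC1b flox/flox cells and 99.7 and 80.8 with LysMCre.

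To examine the part of NCoR, H3K27ac was compared between NKO and WT cells. No member row was called between the genotypes with Veh (0 of 12 by edgeR and by DESeq2, 1 at an unadjusted p-value under 0.05, 1.0% of all rows called), with KLA (0 of 12, 0 at an unadjusted p-value under 0.05, 0.789%) or in the difference between their KLA responses (0 of 12, 1 at an unadjusted p-value under 0.05, 0.697%). Member medians were 0.43 with Veh, −0.21 with KLA and −0.07 for the response, against 0.30, −0.04 and −0.34 for all rows. In NKO cells alone KLA raised 2 of 12 rows (2.75% of all rows), both at Il1a, with a median of 0.36 against −0.20, and 1 was called without NKO Veh replicate 2 or NKO KLA replicate 2. The Il1b region in NKO cells was not called (1.21), but it was called higher with TMM (1.42, adjusted p = 0.0443). The Il18 promoter measured 26.5 and 28.4 against 29.7 and 30.6 in NKO cells, and its response was lower than in WT cells by a log2 value of −1.22 ± 0.50 (adjusted p = 0.252). The Il1b region measured 13.3 and 4.64 against 20.2 and 20.1 in NKO cells, with a difference in response of −0.90 ± 0.72 (adjusted p = 0.609). At the gained Il1a site H3K27ac was 0 and 0.580 against 26 and 12.5 in NKO cells, a ratio of 62.1 (10.8 to 2488), and 1.26 and 1.53 against 11.3 and 15.2 in WT cells. Neither of these differences between genotypes was resolved at this depth.

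Between PGC1b flox/flox, LysMCre and PGC1b flox/flox cells, H3K27ac calls were made with KLA at Il1rn and Il1r1, and 0 with TMM. With Veh 0 of 14 rows were called by edgeR and by DESeq2, with 5 at an unadjusted p-value under 0.05 (0.397% of all rows called), and the medians were −0.13 and −0.20. With KLA 2 of 14 rows were lower with LysMCre (6.81%), at Il1rn and Il1r1, and all 14 had a negative log2 fold change, with a median of −0.68 against −0.38 for all rows. With TMM the medians were −0.29 and 0.01 and 0 rows were called, 1 row was called without LysMCre KLA replicate 2 and 4 without flox/flox KLA replicate 2. KLA raised 6 rows and lowered 3 of 14 in the LysMCre cells (4.18% and 32.5%; 8 and 1 with TMM), with a median of 0.62 against −0.62.

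At an adjusted p-value under 0.05 with no limit on the fold, 6 of 14 rows had a lower KLA response with LysMCre, against 16.4% of all rows. Past 2-fold the difference was called at 1 of 14 rows (4.6% of all rows were lower), the Il1rn region 1.3 kb upstream, and 2 or 3 rows were called without flox/flox Veh replicate 2, either LysMCre Veh library or LysMCre KLA replicate 1. There H3K27ac went from 35.3 and 36.0 to 192 and 210 in flox/flox cells (2.49) and from 39.3 and 33.8 to 99.7 and 80.8 with LysMCre (1.3), a difference of −1.19 ± 0.29 (adjusted p = 0.000525). The median difference of members was −0.50, against −0.18 for all rows. The Il1b region 2.4 kb upstream held 53.0 and 74.3 with Veh and 187 and 185 with KLA in LysMCre cells (1.55), below the 283 and 281 of flox/flox cells with KLA (−0.60, adjusted p = 2.26e-05, short of 2-fold). At the Il1rn promoter the KLA libraries were 265 and 279 in flox/flox and 170 and 150 in LysMCre cells (−0.77, adjusted p = 1.36e-07), also short of 2-fold. The Il1r1 region 28.4 kb downstream, an intronic window, was 257 and 242 with Veh and 198 and 186 with KLA in flox/flox cells, and 254 and 239 against 97.5 and 99.0 in LysMCre cells, so the fall with KLA was called in the latter (−1.33) and not in the former (−0.38). With TMM the fall in LysMCre cells was −0.71, short of 2-fold, and the responses differed by −0.94 ± 0.18 (−0.76 with TMM), also short of 2-fold. The Il1a region 10.2 kb upstream did not follow, with 211 and 194 against 181 and 171 with KLA (−0.20, adjusted p = 0.282), and neither did the Il18 promoter, with 343 and 411 against 345 and 350 (−0.12).

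RGFP966 with KLA was compared with DMSO and KLA to examine the deacetylase activity of HDAC3. Of 14 rows 2 rose and 0 fell (26.9% of all rows rose), both at Il1r1, and the member median was 0.12 against 0.39 over all rows, or −0.06 against 0.21 with TMM. The Il1r1 region 5.5 kb downstream was 27.8 and 17.7 with DMSO and 79.6 and 58.3 with RGFP966 (1.57 ± 0.29, adjusted p = 2.89e-07), close to its 74.8 and 63.7 with DMSO and Veh. The Il1r1 promoter rose from 9.07 and 11.8 to 34.9 and 22.4 (1.47), and was not called without RGFP966 replicate 1 (1.11, adjusted p = 0.0775), which left 1 row called. The cytokine regions showed no such rise: Il1b was 399 and 330 against 309 and 276 (−0.32, adjusted p = 0.143), Il1a at 10.2 kb 174 and 160 against 203 and 189 (0.23) and Il18 374 and 267 against 340 and 281 (−0.05). The Il1rn promoter was 330 and 303 against 228 and 172 (−0.66, adjusted p = 0.00248, short of 2-fold), and the Il1rn region 1.3 kb upstream was 297 and 220 against 313 and 239 (0.09).

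A list of 32 further genes of the IL-1 and inflammasome pathways was counted beside the members. With KLA, NCoR rose at 26 and fell at 24 of their 149 rows, against 23.4% and 16.7% of all rows, with a median of −0.03 against 0.10. p65 rose at 79 and fell at 5 of 134 rows (57.0% and 5.43%), with a median of 1.38 against 1.46. p300 rose at 66 and fell at 36 of 181 rows (42.1% and 12.9%), with a median of 0.46 against 0.65. H3K27ac in WT cells rose at 2 and fell at 2 of 35 rows (6.49% and 3.72%), with a median of 0.08 against 0.13. The rows named next had the lowest p-value among called rows of this list in each direction, for NCoR, p65 and H3K27ac in WT cells. At Il1f10, an IL-1 family gene next to Il1rn, NCoR 4.1 kb downstream of the TSS held 0 tags in both Veh libraries and 72.9 and 102 with KLA, and p65 rose from 6.13 and 6.53 to 355 and 377 (5.83). At Ninj1, which encodes a protein of plasma membrane rupture, NCoR fell from 160 and 197 to 21.9 and 30.4 (−2.75). At Txnip, an inhibitor of thioredoxin, p65 fell from 30.6 and 27 to 4.67 and 0.684 (−3.37). H3K27ac in WT cells rose at Casp4, the protease of the noncanonical inflammasome, from 8.83 and 8.66 to 22.6 and 23.4 (1.39), and fell at P2rx7, the ATP-gated channel upstream of NLRP3, from 49.8 and 45.8 to 15.7 and 17.9 (−1.50).

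Over the 8 libraries of the WT and NKO H3K27ac table, the rows of other genes whose log2 level was most like that of the Il1b region, among 24829 compared, were those of Ndufaf3, Fzd1 and Cpne2 with a Pearson correlation of 0.990 each, Gch1 with 0.986 and Fth1 with 0.985. These points share libraries and their depth, and the values are descriptions of 8 libraries in 4 groups.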

How the data were processed

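The deposited tables held raw tag counts per peak or region, made by the authors with Bowtie2 and HOMER on mm10 without scaling (versions are not given in the sources used here). Peaks were merged over the conditions of a table, H3K27ac was counted over open chromatin regions, and 2 of its tables used windows of 1000 bp. The 30 input samples were not analysed here. Levels were scaled to 10 M tags with the totals in the file headers (4.30 to 21.5 M), which were also the library sizes of the two-sided quasi-likelihood F-test of edgeR 4.0.16 (1 fit per table, R 4.3.3). Rows needed at least 4 tags (16 for H3K27ac) in 1 library. Calls needed a change over 2-fold at a p-value under 0.05 after Benjamini-Hochberg adjustment. TMM, DESeq2 1.42.0, no filter, a replicate block, leaving out each library and site distances of 100 and 1000 bp were tried. Ratios of groups with 1 to 3 tags carry exact 95% counting intervals, and groups at 0 were set to a floor of 3 tags over the group. Both cover counting error only.

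Described sites were each promoter (within 2 kb of the TSS), up to 2 other sites with rows in most tables, and the called row of lowest p-value per gene, comparison and direction. Values of PGC1β at 8.5 kb upstream of Il1a were chosen after they were seen. The members, the pathway list and the markers were chosen with earlier results of these data known. Motifs and coordinates were read from GRCm38 after 691 of 691 rows were checked against its annotation. Scripts were tested on simulated data.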

Additional observations from a re-analysis of the deposited data

Results flagged for a closer look

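At 6 H3K27ac windows the response to KLA differed between PGC1b flox/flox, LysMCre and PGC1b flox/flox cells by the interaction term of the edgeR fit at an adjusted p-value under 0.05 with no limit on the fold, and in each the log2 response was lower with LysMCre. At that threshold 16.4% of all rows were lower, and 1 of the 14 tested member windows was also past 2-fold. The Il1rn window 1.3 kb upstream differed by −1.19, past 2-fold. It stayed under an adjusted p-value of 0.05 in all 13 settings tried, at −1.35 to −1.01. The Il1b window 2.4 kb upstream differed by −0.979, with −1.21 to −0.72 over the settings and a highest adjusted p-value of 0.0485. The Il1r1 windows 28.4 and 28.8 kb downstream, which overlap each other, differed by −0.944 and −0.735. The Il1rn window 3.7 kb upstream differed by −0.944, with −1.27 to −0.51 over the settings and an adjusted p-value of 0.305 without LysMCre Veh replicate 1. The Il1rn promoter differed by −0.642, and its adjusted p-value was above 0.05 in 7 settings, up to 0.355 without LysMCre Veh replicate 2. With TMM the 6 differences were smaller, at −1.01, −0.79, −0.76, −0.55, −0.76 and −0.46 in the order given. Their cause was not tested.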

How the results depend on the processing

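Each group had 2 libraries, so the calls rest on the spread between pairs of libraries and on the scaling. With TMM the member calls were 38 for p65, 20 for Fosl2, 13 for PU.1, 19 for PGC1β with DMSO, 2 for NCoR with ERKi, 3 for p300 on Day4, 3 for H3K27ac in WT cells and 0 between the Pgc1b genotypes with KLA. DESeq2 called 9 rows for p300 and 1 for ERK1 on Day4. Directions turned with TMM in 5 places: NCoR with ERKi became 0.098 at the Il18 promoter, 0.11 at Il1a 1.8 kb upstream and 0.091 at Il1r1 28.4 kb downstream, p300 on Day4 became −0.28 at Il1b 2.4 kb upstream, and p65 became −0.088 at Il1r1 28.4 kb downstream. The cause was not tested. Leaving out 1 library at a time gave 7 to 29 calls for NCoR, 15 to 32 for HDAC3, 7 to 20 for PGC1β, 63 to 74 for p300, 44 to 67 for p65, 0 to 21 for Fosl2, 6 to 8 for PU.1, 1 to 12 for ERK1, 20 to 25 for PGC1β with DMSO, 0 for PGC1β with ERKi and 12 to 26 for NCoR with ERKi. On Day4 it gave 0 to 1 for ERK1 and 4 to 21 for p300. For H3K27ac it gave 1 to 4 in WT and 1 to 3 in NKO cells, 0 between those genotypes, 7 to 9 with DMSO, 1 to 3 with RGFP966, 6 to 7 in flox/flox and 8 to 9 in LysMCre cells, 0 between these with Veh, 1 to 4 with KLA and 1 to 3 for the response. The lone library left in a group is assumed there to vary like the others. Of 192 called values at described sites, 178 kept their call with DESeq2, 132 with TMM and 192 without the filter. Same-numbered libraries did not deviate together (31 correlations from −0.027 to 0.026), and a replicate block gave 4 calls for Fosl2 and 11 for p300 on Day4.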
